A study of Mus musculus with 2 samples.

Results

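Open internal alternative promoters were 1754 of the 75148 regions of open chromatin listed for the series, and they lay in 1301 protein-coding genes. Rows of the deposited series-level list that overlapped by at least 1 bp were merged, and the summit of a merged region was that of its row with the highest fold enrichment. A region was kept where this summit lay within 1 kb of an annotated coding transcription start site (GENCODE release M21) that was itself over 5 kb downstream of the gene's most upstream coding start site, and where no other gene had a coding start site within 1 kb. A further 54 regions met the first condition but also lay near another gene and were left out. Beyond the place of a region in the list and the choice of its summit, the rule used position alone. An open region near an annotated start site is called a promoter here, and whether it acts as one was not tested.

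The regions came from ATAC-seq, in which the Tn5 transposase cuts accessible DNA, on granulocyte monocyte progenitors, the bone marrow precursors of neutrophils and monocytes. All cells were from male adult C57BL/6J mice of 5 to 6 weeks, with no mutation or treatment named in the labels and 50000 cells per library. There was 1 group with 2 biological replicates, which share a donor label and have separate biosamples, so that no condition was compared with another and no test between conditions could be made. Sequencing instruments are labelled for replicate 1 alone. A region was found at a coding start site for 8 of 8 marker genes of these progenitors (among them Cebpa, Elane and Ms4a3) and for 6 of 13 marker genes of other cells, of which Pax5 of B cells stood at a fold of 12.8 and Cd3e, Klf1 and Alb had none.

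Many mammalian genes carry more than 1 promoter. An internal promoter replaces the first exon, and where the first codon lay in that exon it also changes or shortens the N terminus of the protein; where it lies upstream of the same first coding exon it changes only the 5' leader and the signals to which the gene responds. Promoters rich in CpG dinucleotides are usually broad and open in many tissues, whereas those poor in CpG are more often bound by factors of a lineage, which in myeloid cells include PU.1, the C/EBP family and RUNX1.

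The DNA at 11 summits is given as 150 bases on the strand of the gene, read from the GRCm38 (mm10) reference genome and not from the cells' reads. Capitals mark the letters of any of the 13 motifs described with the motif counts. The first 6 are known alternative promoters of genes with a role in blood cells, shown because the identity of each upstream and downstream product is established.
Ptpn6 (chr6:124733090-124733239, minus strand): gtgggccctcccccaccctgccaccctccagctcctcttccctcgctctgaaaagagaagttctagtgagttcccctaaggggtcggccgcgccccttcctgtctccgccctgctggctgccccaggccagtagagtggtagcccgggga
Cdkn2a (chr4:89282136-89282285, minus strand): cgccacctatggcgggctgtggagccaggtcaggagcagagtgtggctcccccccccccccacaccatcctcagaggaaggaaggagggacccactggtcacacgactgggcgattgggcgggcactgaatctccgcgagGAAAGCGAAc
Runx1 (chr16:92696692-92696841, minus strand): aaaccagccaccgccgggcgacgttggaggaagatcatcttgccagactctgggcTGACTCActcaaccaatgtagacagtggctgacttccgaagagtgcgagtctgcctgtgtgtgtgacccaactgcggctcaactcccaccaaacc
Dnmt3a (chr12:3891377-3891526, plus strand): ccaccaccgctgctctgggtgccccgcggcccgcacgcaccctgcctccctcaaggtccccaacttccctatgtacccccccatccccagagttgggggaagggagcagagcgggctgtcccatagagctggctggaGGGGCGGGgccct
Lmo2 (chr2:103969488-103969637, plus strand): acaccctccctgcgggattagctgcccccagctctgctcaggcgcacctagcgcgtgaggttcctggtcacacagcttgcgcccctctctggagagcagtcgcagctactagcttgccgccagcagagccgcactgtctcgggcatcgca
Abl1 (chr2:31759808-31759957, plus strand): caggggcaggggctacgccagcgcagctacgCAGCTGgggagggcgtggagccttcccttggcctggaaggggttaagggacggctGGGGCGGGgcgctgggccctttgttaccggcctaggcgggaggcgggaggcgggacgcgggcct
The annotated internal start site was base 86 of the Ptpn6 stretch, base 94 of the Cdkn2a stretch, base 41 of the Lmo2 stretch and base 136 of the Abl1 stretch, whereas in Runx1 and Dnmt3a it lay outside the printed bases.

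The next 3 were the members with the highest fold, and the last 2 were chosen after their values were seen because PU.1 letters lay at their summits.
Platr25 (chr13:62684910-62685059, minus strand): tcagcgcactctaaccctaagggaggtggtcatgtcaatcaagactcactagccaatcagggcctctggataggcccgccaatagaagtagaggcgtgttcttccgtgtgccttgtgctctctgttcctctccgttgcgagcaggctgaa
Pcyt1b (chrX:93674983-93675132, plus strand): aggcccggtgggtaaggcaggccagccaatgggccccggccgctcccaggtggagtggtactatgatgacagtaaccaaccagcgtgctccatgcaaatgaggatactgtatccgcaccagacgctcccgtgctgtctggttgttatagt
Trip4 (chr9:65885005-65885154, minus strand): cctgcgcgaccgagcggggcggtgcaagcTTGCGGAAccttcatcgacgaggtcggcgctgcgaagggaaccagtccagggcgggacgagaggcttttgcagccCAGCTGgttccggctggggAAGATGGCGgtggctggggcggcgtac
Grb2 (chr11:115699474-115699623, minus strand): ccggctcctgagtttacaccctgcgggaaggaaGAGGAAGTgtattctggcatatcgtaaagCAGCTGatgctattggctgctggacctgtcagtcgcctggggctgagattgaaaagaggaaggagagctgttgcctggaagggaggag
Tfeb (chr17:47754348-47754497, plus strand): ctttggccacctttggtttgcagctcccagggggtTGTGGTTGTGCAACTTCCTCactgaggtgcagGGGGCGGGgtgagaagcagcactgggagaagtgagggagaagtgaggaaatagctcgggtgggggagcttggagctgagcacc
In Grb2 the letters GAGGAAGT of PU.1 and CAGCTG of an E-box lay upstream of the start site at base 90. In Tfeb the C/EBP letters overlapped those of RUNX on one side and those of PU.1 on the other, with C/EBP and PU.1 read on the other strand and with those of KLF/SP further downstream. The C/EBP letters of Trip4 lay before and the YY1 letters AAGATGGCG after its start site at base 99.

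Most open internal promoters also had a region in the list of each replicate. The series-level list was made from the reads of both replicates, so this overlap is not an independent recovery. A region overlapped a member by at least 1 bp in the list of replicate 1 for 1528 members (87.1%) and in that of replicate 2 for 1319 (75.2%), against 81.9% and 69.4% of all regions of the series-level list. Both lists held 1278 members (72.9%), against 66.1% of all regions. A further 250 members were in the list of replicate 1 only, 41 in that of replicate 2 only and 185 (10.5%) in neither, at median folds of 6.14, 5.10 and 5.05, against 8.95 for the members in both. In the looser lists of replicate 1 (116490 regions) and replicate 2 (98726 regions) the shares were 99.6% and 98.2%. Both looser lists are longer than the series-level list, and these shares are not read as a trait of the members. For the most upstream promoters the share in both lists was 84.7%.

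The fold enrichment of a row was computed by the authors, as a ratio to a background that no label or header defines. Here it serves only to rank and describe regions within a list, and since read counts were not used here the depth behind it is unknown. The median fold of the members was 7.83 in the series-level list, with a range of 1.84 to 22.9. It was 9.32 over 11390 regions at most upstream coding start sites, 7.66 over 27100 intronic regions over 1 kb from every coding start site, and 8.09 over all regions. Internal promoters had folds close to those of intronic regions. In width they stood between these classes, with a median of 600 bp for the members, 808 bp for the most upstream promoters and 427 bp for intronic regions.

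**Figure D1:**
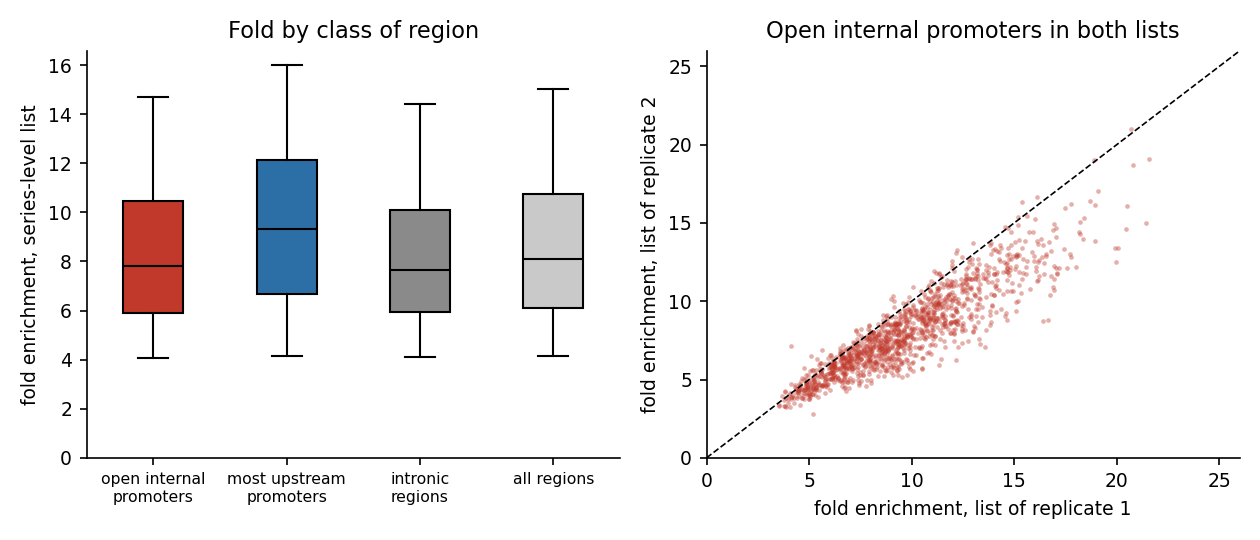
Left, fold enrichment in the series-level list for 1754 open internal promoters, 11390 most upstream promoters, 27100 intronic regions and all 75148 regions; boxes span the 25th to 75th percentile, lines mark the median and whiskers the 5th and 95th percentile. Right, fold enrichment of 1278 open internal promoters in the list of replicate 1 (x axis) and of replicate 2 (y axis), with the line of equal values; most points lie below the line.

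The values of the replicates followed each other. Over the 1278 members in both lists the fold of the row nearest to the member's summit had a Spearman correlation of 0.90 across regions, which share their libraries and are not independent. The fold was a median of 1.18 times as high in replicate 1 as in replicate 2. At one extreme Aatk, a brain-enriched kinase gene, had 4.10 in replicate 1 and 7.13 in replicate 2, and at the other Chst3, a chondroitin sulphotransferase, had 12.2 in replicate 1 and 6.26 in replicate 2. The members with the lowest series-level folds were high in 1 replicate and absent from both lists of the other. Dmtn had 1.84 in the series-level list and 8.21 in replicate 2, Lrcol1 had 1.88 in the series-level list and 8.82 in replicate 2, and neither had a row in replicate 1. Dlg4 had 2.36 in the series-level list and 9.76 in replicate 1, with no row in replicate 2.

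Summits gathered just upstream of the annotated start site. They lay within 100 bp of it in 746 members (42.5%), between 100 and 250 bp in 305, between 250 and 500 bp in 287 and between 500 and 1000 bp in 416 (23.7%). The median distance was 147 bp, and 1064 summits (60.7%) lay on the upstream side. The members within 100 bp had a median fold of 8.71, a CpG-rich window in 47.1% and a region in both replicates' lists in 82.4%. The members beyond 500 bp had a median fold of 6.84, a CpG-rich window in 12.5% and a region in both lists in 61.1%. At the limits of the rule, the farthest summit kept was 999 bp from a start site of Elovl6 (fold 11.9) and the nearest left out was 1002 bp from a start site of D230025D16Rik (fold 5.92). The nearest start site kept lay 5005 bp downstream in Cfap45 (fold 4.70) and the nearest left out 4998 bp downstream in Pef1 (fold 9.69).

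**Figure D2:**
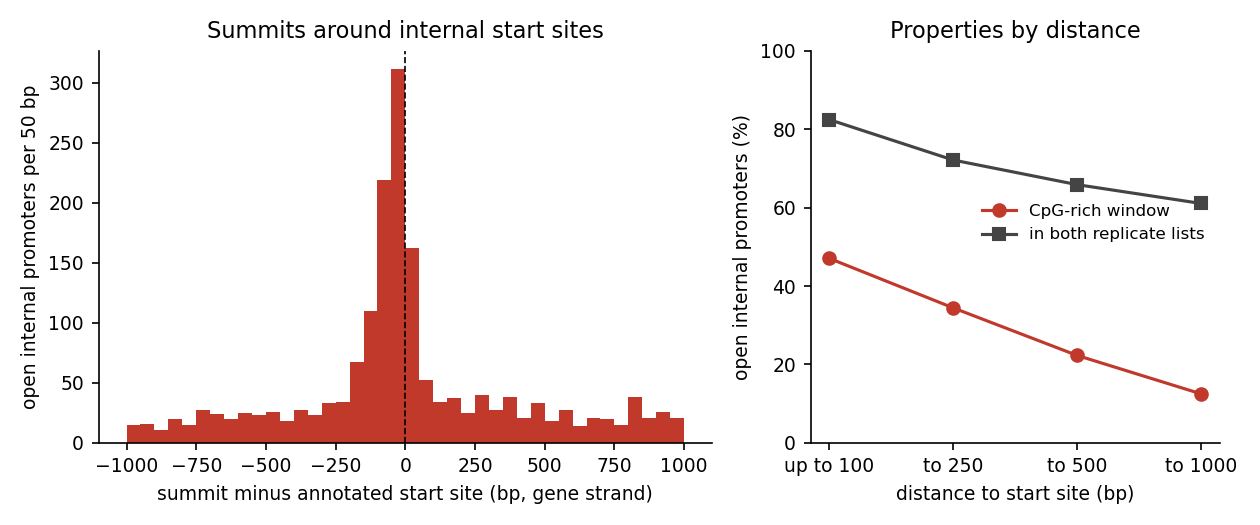
Left, number of open internal promoters per 50 bp by the position of the summit relative to the nearest internal start site, in bp on the strand of the gene, negative upstream; the peak stands just upstream of the start site. Right, percent of members with a CpG-rich window and percent found in the lists of both replicates, by distance from the start site; both shares are highest within 100 bp (47.1% and 82.4%).

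The start sites of the members lay a median of 23.1 kb downstream of the gene's most upstream start site, with quartiles of 11.1 kb and 62.3 kb. In the transcript that starts most upstream, the start sites of 1414 members (80.6%) fell in an intron, 774 of them in the first. Those of 262 members fell in an exon and those of 78 lay beyond its end. A median fold of 7.77 was seen for the members with the start site in an intron and 7.81 for those with it in an exon. Fold hardly varied with distance either, with medians of 7.76 at 5 to 10 kb, 7.89 at 10 to 50 kb, 7.75 at 50 to 200 kb and 8.07 over 200 kb. On the X chromosome 50 members had a median fold of 10.8, against 7.80 elsewhere, and the most upstream promoters there had 11.1, against 9.26 elsewhere.

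The internal start sites that were open differed from those that were not in base composition and in how well they are annotated. Internal start sites of a gene that lay within 1 kb of the next were joined, which gave 7484 start-site groups in 4917 genes, and 1543 groups (20.6%) were open. At least 1 group was open in 1299 genes, 26.4% of those with such a group. A group was left out where a coding transcript of another gene starts within 1 kb of any of its start sites, while members were judged by the distance from their summit, so these genes differ slightly from the 1301 that held a member. A CpG-rich window, here 500 bp with a GC content of at least 50% and a ratio of observed to expected CpG of at least 0.6, stood at 507 of the open groups (32.9%) and at 149 of the 5941 that were not open (2.51%). Read the other way, 77.3% of CpG-rich groups and 15.2% of the others were open.

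Annotation differed in the same way. A RefSeq curated mRNA began within 100 bp of 55.6% of the open groups and of 20.96% of those not open. A transcript of the consensus coding sequence set started at 59.6% of open groups and at 29.5% of those not open, and a principal isoform at 45.3% of open groups and 22.7% of those not open. The annotated 5' end was complete in 87.5% of open groups and 55.6% of those not open. Among CpG-rich groups with a RefSeq start 84.6% were open, and among groups with neither 11.1% were. A TATA box (TATAAA at 20 to 40 bp upstream) stood at 1.10% of open groups and 1.16% of those not open, so that this feature was equally rare in both.

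CpG content of the members themselves lay between those of upstream promoters and of introns. A CpG-rich window surrounded the summit of 572 members (32.6%), against 69.1% of most upstream promoters, 1.29% of intronic regions and 15.5% of all regions. The CpG-rich members were the higher and wider ones, at a median of 8.52 in fold and 822 bp in width, and both replicates' lists held 82.0% of them. For the other 1182 members these medians were 7.47 and 508 bp, and both lists held 68.4%. Repeats covered at least 50% of the 100 bp at the summit in 1.88% of members and 4.22% of all regions.

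The motif letters at the summits divided along the same line. The 100 bp at each summit were searched on both strands for 13 sets of letters. Of the lineage factors, PU.1 was searched as GAGGAAGT, C/EBP as TTGCNNAA and the RUNX family as TGTGGTT. The interferon regulatory factors (IRF) were searched as GAAANNGAA and GATA factors as AGATAAG. Of the broadly used factors, KLF/SP was searched as GGGGCGGG, the general ETS family as CCGGAAGT and AP-1, the dimer of Fos and Jun proteins, as TGANTCA. Searched as well were the CRE (TGACGTCA), NRF1 (GCATGCGC) and YY1 (AAGATGGCG) letters, those of the insulator protein CTCF (AGGNGGCAG) and the E-box CAGCTG of helix-loop-helix proteins. Some sets share letters, as those of PU.1 and ETS do. A match is a description of the letters and shows no binding. At least 1 of the 13 was present in 725 members (41.3%), 38.3% of most upstream promoters, 43.8% of intronic regions and 42.3% of all regions.

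PU.1 letters were present in 5.25% of members, against 2.71% of most upstream promoters, 8.84% of intronic regions and 7.51% of all regions. C/EBP letters were present in 7.18% of members, 3.86% of most upstream promoters, 10.5% of intronic regions and 9.17% of all regions. RUNX letters were present in 3.82% of members, 1.93% of most upstream promoters, 7.54% of intronic regions and 6.17% of all regions. These lineage motifs were therefore more frequent in members than at most upstream promoters and less frequent than in introns. The order was the opposite for KLF/SP letters, present in 9.41% of members, 16.0% of most upstream promoters, 1.24% of intronic regions and 4.13% of all regions. AP-1 letters were present in 4.68% of members and 5.61% of all regions, IRF letters in 3.19% of members and 3.70% of all regions, and E-box letters in 8.27% of members and 7.43% of all regions. ETS letters stood at 1.48% of members and 1.14% of all regions, CTCF letters at 2.28% of members and 3.40% of all regions, and CRE letters at 1.03% of members and 0.57% of all regions. The rarest were NRF1 letters in 1.08% of members and 0.48% of all regions, GATA letters in 0.91% of members and 1.07% of all regions, and YY1 letters in 0.29% of members and 0.28% of all regions.

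**Figure D3:**
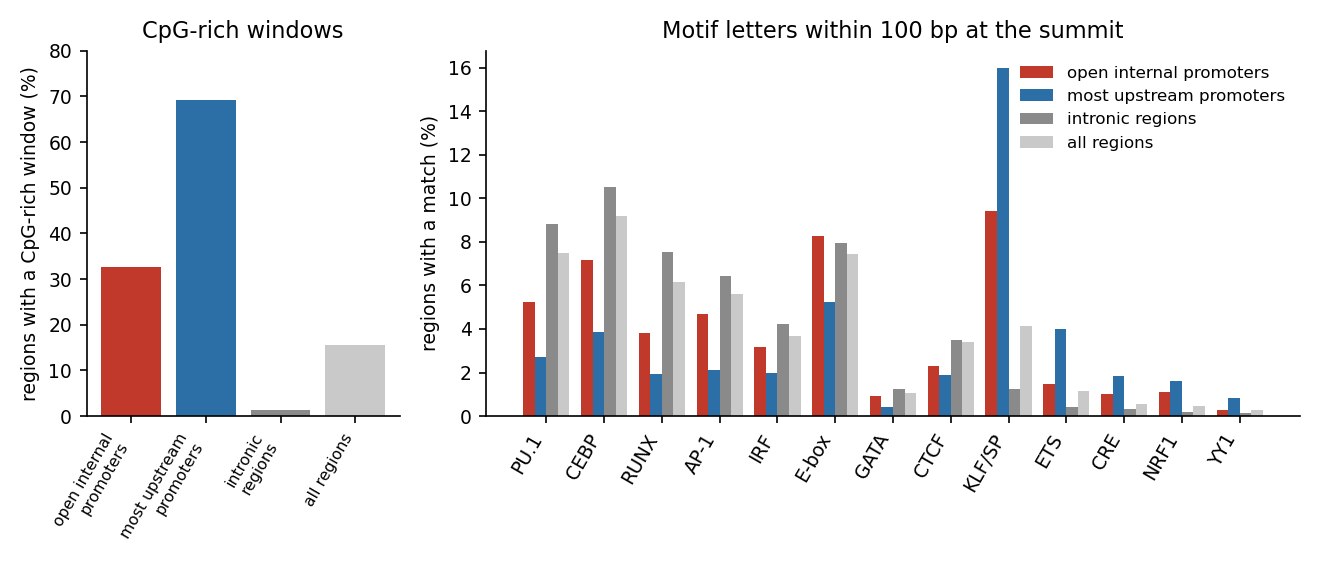
Left, percent of regions whose summit lies in a CpG-rich window of 500 bp. Right, percent of regions with a match to each of 13 motifs in the 100 bp at the summit; bars are open internal promoters, most upstream promoters, intronic regions and all regions. For CpG (32.6% of members, 69.1% of upstream promoters, 1.29% of intronic regions), PU.1 and KLF/SP the members stand between upstream promoters and intronic regions.

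Base composition accompanied much of this. Of the 572 CpG-rich members, PU.1 letters were present in 3 (0.52%), RUNX letters in 1 (0.17%) and C/EBP letters in 21 (3.67%), while KLF/SP letters were present in 112 (19.6%). Of the 1182 others, PU.1 letters were present in 89 (7.53%), RUNX letters in 66 (5.58%), C/EBP letters in 105 (8.88%) and KLF/SP letters in 53 (4.48%). At the most upstream promoters with a CpG-rich window PU.1 letters were present in 1.49%, RUNX letters in 0.77%, C/EBP letters in 2.18% and KLF/SP letters in 19.8%. At those without such a window these shares were 5.46% for PU.1, 4.52% for RUNX, 7.62% for C/EBP and 7.54% for KLF/SP. The part of base composition in the motif shares was not tested.

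In genes with a region at both places, internal regions and regions at the most upstream start site were of similar fold. The highest internal region exceeded the region at the most upstream start site in 414 of 826 such genes (50.1%), with a median ratio of 1.00 and median folds of 8.55 for the internal and 8.68 for the upstream region. The internal region was at or below 0.5 times the upstream one in 53 genes. In the list of replicate 1 the internal region was higher in 52.6% of 730 genes and in that of replicate 2 in 48.7% of 610. Of 575 genes with both regions in every list, 501 (87.1%) had the same order in both replicates. Genes with several internal regions enter with their highest, which favours the internal side. Here and below, a region at a most upstream start site was also counted where another gene has a coding start site within 1 kb. The rule left such regions out of the members, so the sides differ in this.

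In 63 genes the internal promoter had over 2 times the fold of the upstream one. H2-DMa, which helps to load peptides on class II molecules, had an internal fold of 14.4 (16.2 in replicate 1 and 11.4 in replicate 2), against 3.29 at the upstream start site. Fkbp5, a co-chaperone of the glucocorticoid receptor, had 14.5 (15.1 and 12.3), against 4.54. Pik3cd, the catalytic subunit of the phosphoinositide 3-kinase of leukocytes, had 16.4 (17.6 and 12.1), against 5.76. In these genes the internal region had 4.36, 3.19 and 2.85 times the fold of the upstream region. In H2-DMa and Fkbp5 the annotation places the start of a principal isoform at the internal site. Their annotated products have the same length from both sites, 261 residues for H2-DMa and 456 for Fkbp5. The 5 highest ratios were those of H2-DMa and Fkbp5, followed by Tjp3 (tight junctions) at 3.09, Ahnak (a giant scaffold protein) at 2.94 and Nadk (NAD kinase) at 2.86, with Pik3cd below them.

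At the other end stood Tex14, a gene of germ cell bridges, with an internal fold of 4.07 against 16.7 upstream. Dusp1, which inactivates MAP kinases, had an internal fold of 4.50 (5.01 in replicate 1 and 3.77 in replicate 2), where its principal isoform starts. The region at its most upstream start site, 53.7 kb away, had 15.4. Ergic1 had the same upstream fold of 15.4, so this region may also be that of Ergic1. Whether it acts as a promoter of Dusp1 was not tested. Ppcdc (coenzyme A synthesis) had 3.78 against 14.0, in neither replicate's list, and Usp2 (a deubiquitinase) had 5.16 against 14.7.

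**Figure D4:**
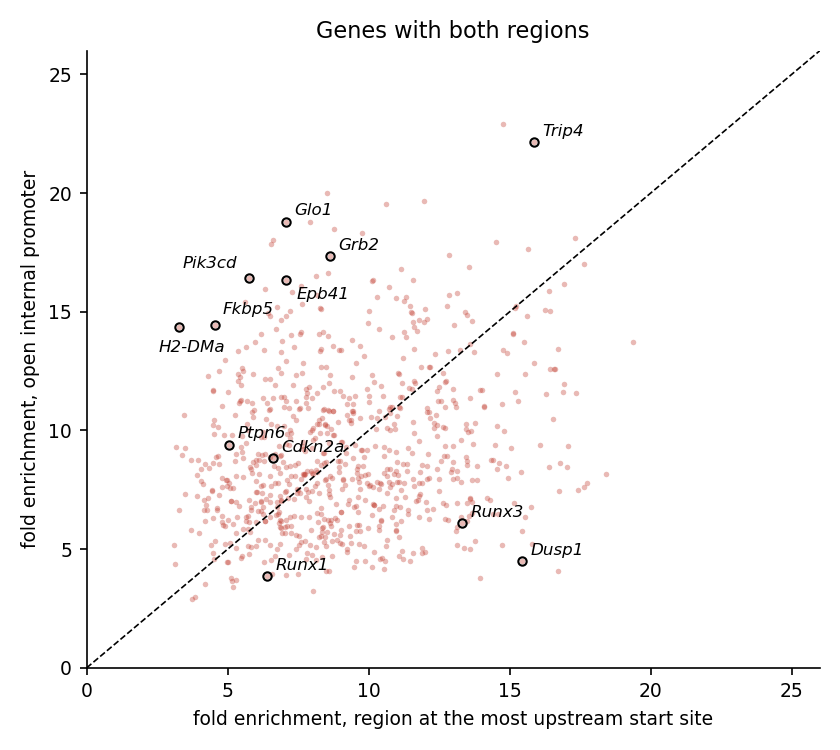
Fold enrichment in the series-level list for 826 genes with both regions, with the highest open internal promoter of each gene on the y axis and the region at its most upstream start site on the x axis; the dashed line marks equal values. Points spread on both sides of the line (50.1% above), with Pik3cd, Fkbp5, H2-DMa and Glo1 far above and Dusp1 far below. The upstream region can also lie near the start site of another gene, and Dusp1 has the same upstream value as Ergic1.

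An internal region stood alone in 475 genes (36.5% of the 1301), which had no region at the most upstream start site. In 31 of these another start site within 5 kb of the most upstream was open, and in 444 none was. An internal group was open in 26.7% of the 3095 genes with an open upstream start site and in 25.96% of the 1822 genes without, shares that lie close together. The 651 members of the genes without an upstream region were CpG-rich in 41.2% and began a principal isoform in 53.3%. For the 1103 members of genes with an upstream region these shares were 27.6% and 40.9%. The median fold was 7.80 for the members without and 7.84 for the members with an upstream region.

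Among the members with no upstream region, Pcyt1b, which makes an activated choline for membrane lipids, had the highest fold, at 22.6 (21.6 in replicate 1 and 19.1 in replicate 2). Tmsb15b2, an actin-binding thymosin, had 20.5 (21.4 and 15.0), and Akap12, a scaffold for protein kinase A, had 20.5 (19.1 and 17.1) with its summit at -801 bp from the start site. All 3 stood at or above the 99.78th percentile of fold in the series-level list. They were followed by Scml2 (a Polycomb protein) at 18.4, Cpne4 (a copine) at 18.2, Blmh (a cysteine protease) at 18.1, Atp6v1h (a subunit of the vacuolar proton pump) at 17.95 and Wdr17 at 17.5. In 5 of these 8 (Pcyt1b, Scml2, Cpne4, Blmh and Atp6v1h) the annotation itself places the start of a principal isoform at the internal site.

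Other members among the 10 highest had an open upstream start site. Platr25, annotated as protein-coding in this release, had 22.9 (20.7 in replicate 1 and 21.01 in replicate 2), against 14.8 upstream. Trip4, a transcriptional coactivator, had 22.2 (20.8 and 18.7), against 15.9. Both members were high in both replicates. Dhx30 (an RNA helicase) had 19.7, C330007P06Rik 19.5, Glo1 (methylglyoxal detoxification) 18.8 and Rasgrf2 (an activator of Ras) 18.8. The regions at their most upstream start sites were lower, at 11.9, 10.6, 7.06 and 7.91. Smarcc1 had the same upstream fold as Dhx30, so that region may also be that of Smarcc1. A principal isoform starts at the internal site in Trip4, C330007P06Rik and Glo1, but not in Platr25, Dhx30 or Rasgrf2.

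Of the genes known for alternative promoters, a list chosen with earlier results of these data known, 26 of 40 with an eligible internal start site had an open one (65%), against 26.4% of all genes with such a site. This share by gene does not take the number of start-site groups per gene into account. By group, 36 of 96 were open (37.5%), against 20.6% of all groups. The most upstream start site was open in 60% of the 40 genes, against 62.9% of all such genes. Beginning with signalling, the haematopoietic promoter of Ptpn6, which encodes the phosphatase SHP-1, stood at a fold of 9.40 (9.89 in replicate 1 and 8.70 in replicate 2), with the upstream promoter of epithelial cells at 5.04. A second internal region of the gene had 6.78, with its summit 682 bp downstream of a start site in exon 13 of the upstream transcript. The annotated products have 595 residues from the internal and 597 from the upstream site. Abl1, the kinase with first exons known as 1a and 1b, had 12.4 (12.5 and 10.8) at the internal site, against 14.5 upstream, with products of 1123 and 1142 residues. Cdkn2a encodes an inhibitor of cyclin-dependent kinases from the internal promoter and the unrelated ARF protein from the upstream one. Its internal promoter stood at 8.83 (7.31 in replicate 1 and 8.19 in replicate 2), against 6.59 at the ARF promoter, with products of 168 and 169 residues.

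The RUNX genes share a distal promoter, P1, and a proximal promoter, P2, and in all 3 the internal fold was the lower. Runx1, required for the first blood stem cells, had an internal fold of 3.86, in the list of replicate 2 only (4.09), against 6.40 at P1, 129 kb upstream. This summit lay 561 bp downstream of the P2 start site, in an exon. Runx3 had 6.11, in the list of replicate 1 only (6.91), against 13.3 at the upstream site. Runx2, the factor of bone, had 4.62 and 4.61 at 2 internal regions, against 10.5. All were in CpG-rich windows.

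Other transcription factors and receptors varied. Lmo2, an adaptor of the stem cell factor complex, had 5.36 (5.93 in replicate 1 and 4.73 in replicate 2) at the internal site, against 8.70. Pparg, the fat cell receptor also used by macrophages, had 10.5 (9.60 and 9.88) near the start of its longer form of 505 residues, against 12.2 at the start of the form of 475. Rarb, a retinoic acid receptor, had 9.59 (10.1 and 8.61) at an internal site with no upstream region. Rara, the retinoic acid receptor of granulocyte maturation, had 4 internal regions between 2.90 and 6.67 and none upstream. Its regions at 3.07 and 2.90 were in neither replicate's list, and those at 6.67 and 3.07 share a start site. Nr3c1, the glucocorticoid receptor, had 6.84 and 4.85 at internal sites, against 10.2. Mecom, a stem cell factor whose internal promoter gives EVI1, had 5.52 at 497 kb downstream of the most upstream start site, in neither replicate's list and with no region upstream. Gata1, the erythroid factor, had 9.99 (9.79 and 7.93) at a site 13.9 kb downstream, where 91% of the 100 bp at the summit is repeat-masked.

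At other open internal promoters the annotated product has another length. Lengths are those of the annotation, and neither transcripts nor proteins were measured here. Dnmt3a, a DNA methyltransferase mutated in myeloid leukaemia, had 7.87 (8.60 in replicate 1 and 6.87 in replicate 2) at the start of its short form of 689 residues, against 9.10 at the start of the form of 908. A second region, 905 bp from another internal start site, had 7.96. Crem had 10.5 (10.8 and 9.14) at the promoter of its repressor ICER, of 125 residues, against 9.29 upstream, and CRE letters stood at both of its internal summits. Dmd, the dystrophin gene, had 10.6 at a site 2100 kb downstream whose product has 617 residues, with 3678 residues from the upstream site, which had no region. This member was in the list of replicate 1 only (10.4). Il1rn, the antagonist of interleukin 1, had 9.70 (9.20 and 8.98) at the start of the form of 178 residues and no region at the start of the form of 159. Gnas, the stimulatory G protein, had 3 internal regions between 3.25 and 5.13, against 5.99 at the most upstream site, with products of 394 residues from the internal and 253 from the most upstream site. The Gnas region at 3.25 was in the list of replicate 1 only.

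Over all members, the coding start could be compared in 1541, where complete transcripts start at both places. It was shared by both kinds of transcript for 730 (47.4%), lay further downstream for 703 (45.6%) and lay further upstream for 108 (7.01%). The median fold was 7.82 with a shared, 7.80 with a downstream and 9.11 with an upstream coding start. CpG-rich windows were found in 34.2% of the members with a shared, 33.9% with a downstream and 56.5% with an upstream coding start. Where protein lengths are annotated and the coding start lay downstream, the internal product was a median of 64 residues shorter over 518 members. It was under 0.5 times the upstream length in 100 of them (19.3%).

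In 8 lists of genes by function, the share of open internal start-site groups was set beside 20.6% of all groups. Blood transcription factors had 40 of 84 groups open (47.6%) and myeloid receptors 11 of 23 (47.8%). Kinases, phosphatases and adaptors of myeloid signalling had 20 of 49 (40.8%), genes with textbook alternative promoters 36 of 96 (37.5%) and the cytoskeleton and its regulators 47 of 186 (25.3%). Chromatin regulators had 21 of 98 (21.4%), lymphoid genes 3 of 14 (21.4%) and neural and muscle genes 19 of 127 (15.0%). Counted by gene, the neural and muscle list did not stand below the background. At least 1 internal group was open in 17 of its 44 genes, in 16 of 40 chromatin regulators and in 3 of 11 lymphoid genes. By gene the share was above the 26.4% of all genes in all 8 lists. The place of the neural and muscle list thus depended on the unit. Most upstream start sites were open in 83.3% of the blood transcription factors with an internal group, 96.6% of the signalling genes and 25% of the neural and muscle genes, against 62.9% of all such genes.

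**Figure D5:**
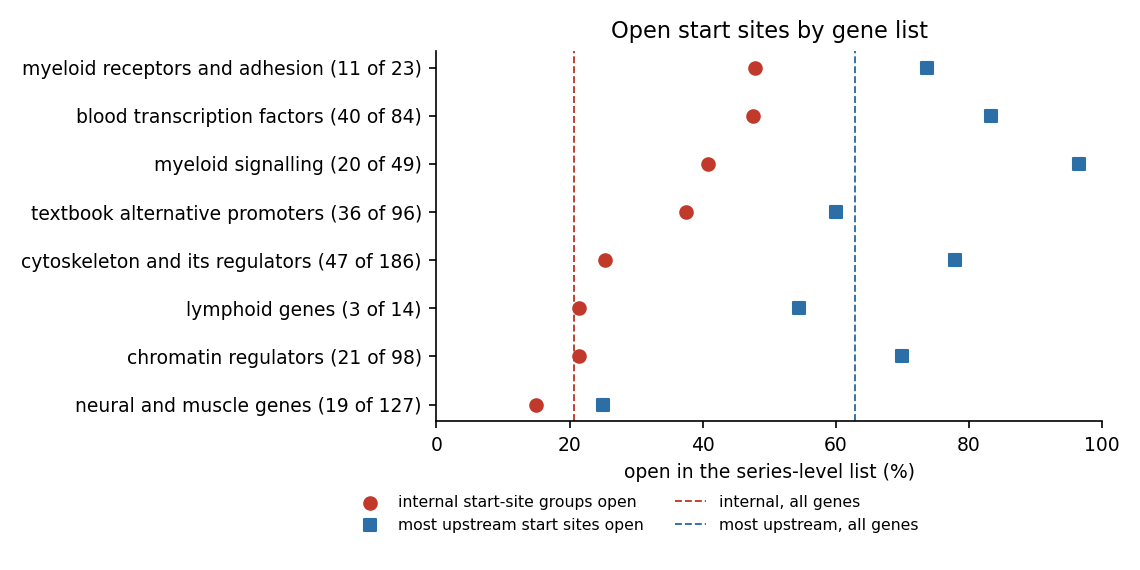
Percent of internal start-site groups open (circles) and percent of genes whose most upstream start site is open (squares) for 8 gene lists, with the counts of open and all internal groups; dashed lines mark all genes (20.6% and 62.9%). Blood transcription factors, myeloid receptors and myeloid signalling stand to the right of the line for internal groups, and neural and muscle genes to the left. The shares by gene, which are not drawn, are above the 26.4% of all genes in all 8 lists.

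In the signalling list the highest members were Grb2, Pik3cd, Abl1 and Syk. Grb2, the adaptor between receptors and Ras, had 17.3 (18.4 in replicate 1 and 14.0 in replicate 2) at its internal site, against 8.64 upstream, with the same product of 217 residues. Syk, a kinase of immune receptors, had 10.4 (10.2 and 9.43), against 8.93. Genes of the list with no open internal site included Fes, Fyn, Inpp5d and Cbl.

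Among the 27 blood transcription factors open at an internal site, Tfeb, the regulator of lysosome genes, was highest at 13.5 (14.2 in replicate 1 and 11.8 in replicate 2), against 8.75 upstream. Mef2c, a factor of monocyte and lymphoid fate, had 12.7 (11.96 and 12.6) and no region at its most upstream site. Tcf12, an E protein, had 11.99 (12.2 and 9.33), against 11.7, and Elf4, an ETS factor, 10.8 (10.1 and 10.9), against 12.1. Spi1, Nfe2, Foxp1, Satb1, Stat5b and Nfkb1 were also open, whereas Erg, Tcf3, Mitf, Rxra and Bach2 were not.

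Chromatin regulators were led by Dnmt1, the maintenance methyltransferase, at 13.5 (14.0 in replicate 1 and 11.7 in replicate 2), with no region at the most upstream site. Kdm4c, a histone demethylase, followed at 11.7, Smarca2, a remodelling ATPase, at 9.90 and Tet3, which oxidises methylcytosine, at 9.89. Cytoskeletal members included Epb41, a linker of spectrin to the membrane, at 16.3 (17.7 and 13.0), against 7.06. Mcf2l, an activator of small GTPases, had 16.0 (16.7 and 13.8), against 6.33, and Ank2, an ankyrin, had 15.1 (15.6 and 11.7), against 7.22. These 3 stood at more than 2 times the upstream region of the gene. Arhgap24, which turns small GTPases off, had 14.3 (16.4 and 8.76), against 10.4, a ratio of 1.38.

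The highest member in the list of receptors was that of Clec4a2. This gene of an inhibitory lectin receptor had 10.9 (11.03 in replicate 1 and 9.97 in replicate 2) and Clec12a, another, 10.8 (11.1 and 10.3), both without a region at the most upstream site. Cd33, a sialic acid receptor, had 8.42 (8.77 and 7.69), against 6.80, and Il6st, the shared receptor chain of the interleukin 6 family, 8.66 (8.48 and 7.37), against 13.0. Genes of other tissues were found too. Nrg1, a growth factor, had 13.0 (13.6 in replicate 1 and 11.4 in replicate 2) with no region at its most upstream site. Of the lymphoid list, Pax5 had 12.8 (13.2 and 9.83), Rora 10.97 (12.2 and 8.54) and Gata3 3.65 in neither replicate's list.

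Several genes held a series of open internal promoters. A single member was found in 957 genes, 2 in 266, 3 in 59 and 4 or more in 19. Pde4d, a phosphodiesterase that degrades cyclic AMP and is known for its many promoters, had 9, spread from 462 to 1273 kb downstream of its most upstream start site, which had no region. Their folds ran from 3.74 to 9.80, and 7 of the 9 were in both replicates' lists. Atf7ip, a partner of histone methylation, had 5 between 8.45 and 11.8, all in both lists. Adgrg1, an adhesion receptor of stem cells, had 5 between 4.69 and 8.61, Oxr1 (oxidation resistance) 5 between 4.63 and 8.29, and Arap1, a regulator of small GTPases, 5 between 3.47 and 8.10. The Oxr1 regions at 7.51, 6.80 and 4.73 were in neither replicate's list, nor was the Arap1 region at 3.47. The Adgrg1 region at 4.69 was in the list of replicate 1 only. Gramd1b, Gse1 and Plec held 5 as well, at lower highest folds. These members of a gene are not independent of each other, and some share a start site.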

How the data were processed

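ATAC-seq was run on 2 replicate libraries of 1 group. The authors deposited region lists in mm10 coordinates, per the labels and file names. Column 7 was read as fold enrichment, a ratio computed by the authors for each row, with aligner, caller and Tn5 shift not given in the sources used here. Members came from a series-level conservative list (109712 rows, 75148 merged regions), with the list of each replicate and the looser lists beside it. Start sites were from GENCODE M21 and sequence from GRCm38.p6. Regions were matched by an overlap of at least 1 bp, and a replicate's fold was that of its row with the nearest summit. Python 3.11.15, numpy 2.4.6 and scipy 1.17.1 were used, and the counting steps were tested on simulated lists. Alternatives changed the list, the summit window, the distance downstream, the transcripts, the overlap, the CpG rule and the motif window.

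The members and gene lists were chosen with earlier results of these data known. Named were open members with textbook alternative promoters, the 10 highest folds, the 5 genes with most members (ties ordered by the summed fold), the 8 highest members with no upstream region, the 5 highest and 5 lowest internal to upstream ratios, up to 4 genes per list, and the members nearest to the limits of the rule. Genes at the extremes of replicate values, the lowest folds and further list genes were named after their values were seen. Some results of this rule are not reported here. No columns of single samples in the series-level lists were used, and nothing was left out by depth, which the files do not give.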

Additional observations from a re-analysis of the deposited data

How the results depend on the processing

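With the list of 1 replicate in place of the series-level list, the number of members ran from 1347 to 1607, the median fold from 7.53 to 8.70, the median width from 563 to 573 bp, the share of start-site groups open from 16.4% to 19.1%, the share of most upstream start sites open from 58.0% to 61.4% and the share of CpG-rich members from 34.1% to 35.8%. The members of the list of replicate 2 were in that of replicate 1 in 96.2%. The share of genes with the higher fold at the internal site ran from 48.7% to 52.6%.

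In the looser series-level list 60.4% of members were in the list of replicate 1 and 50.8% in that of replicate 2, the median fold was 6.07 and the median width 467 bp. There 28.0% of groups and 71.6% of most upstream start sites were open, the internal region was the higher in 45.3% of genes, 28.4% of members were CpG-rich, 38.7% held a motif and 46.7% had a downstream coding start. With only regions at or above the median fold of the whole list there were 823 members, of which 99.1% and 95.7% were in the lists of replicate 1 and replicate 2, with medians of 10.7 in fold and 731 bp in width, and 10.9% of groups and 44.7% of upstream start sites were open. Of these members 38.64% were CpG-rich and 42.2% held a motif.

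With summits within 500 bp the median width was 650 bp, 17.0% of groups and 56.6% of upstream start sites were open and 38.9% of members were CpG-rich. With summits within 250 bp there were 1059 members of a median width of 675 bp, 13.8% of groups and 48.5% of upstream start sites were open, 43.6% of members were CpG-rich and 42.3% held a motif. With internal start sites over 2 kb downstream the median width was 587 bp, 57.2% of upstream start sites were open, 34.5% of members were CpG-rich, 40.7% held a motif and 41.7% had a downstream coding start. With those over 20 kb downstream there were 972 members and 247 genes without an upstream region, 66.7% of upstream start sites were open, 31.2% of members were CpG-rich, 40.02% held a motif and 56.4% had a downstream coding start. With complete transcripts alone the median width was 624 bp, 29.03% of groups and 54.8% of upstream start sites were open and 35.6% of members were CpG-rich. A stricter CpG rule (0.75 and 55% GC) gave 20.1% CpG-rich members, and a motif window of 200 bp gave 57.6% with a motif.

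Under these settings 56 of 110 values stayed within a limit and 54 moved beyond it. The limit was the standard deviation of the values of the 2 replicates, or a change of 1.5 times for counts. The members in the list of a replicate were not counted against that same list. Read counts were not used here, so that low fold cannot be told apart from low depth, and a start site with no region is not shown to be closed. No paired analysis was possible because there is 1 group. The cause of each shift was not tested.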
